A study of Rattus norvegicus with 2 samples.

Results

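The circular RNAs (circRNAs) of 3 transcription factor genes, Mef2a, Ebf1 and Ebf3, were described in rat spinal cord 21 days after surgery. A circRNA is a closed RNA made when a splice donor joins an upstream acceptor, and a sequencing read across that back-splice junction identifies it. The table of back-splice reads listed 11599 circRNAs, and those whose gene field held Mef2a, Ebf1 or Ebf3 as an exact name were taken, which gave 8 circRNAs: 3 of Mef2a, 4 of Ebf1 and 1 of Ebf3. Each of the 8 carried 1 gene name and no other.

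In the bone cancer pain (BCP) group, Walker256 rat carcinoma cells, grown as ascites in SD rats, were injected into the marrow cavity of the tibia. The Sham group received the same cell line after boiling for 20 min, by the same surgery, so the controls also carried injected, though killed, cells. The labels describe 3 animals per group and give 1 library per group, and they do not say how the animals' RNA was combined. The tissue label is spinal cord cells, the RNA was depleted of linear molecules with RNase R, and no age of the operated rats is stated in these labels.

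MEF2A is a MADS-box transcription factor first known from muscle. In neurons its activity follows calcium entry: the phosphatase calcineurin and MAP kinases activate it, and class IIa histone deacetylases repress it. EBF1 and EBF3 belong to the early B-cell factor family of DNA-binding proteins. EBF1 is required for B lymphocyte commitment and also acts in fat cells and in developing neurons, and EBF3 acts in neuronal differentiation. Back-splice reads count the circular products of these genes and not their mRNA or protein.

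Since each group has 1 library, the differences below are those of a pair of libraries, carry no replicate error and do not show an effect of the condition. Levels are back-splice reads per 1000000 such reads of the library (CPM), out of 113033 reads in sham and 78836 in BCP. They are not divided by length, since each read is counted at a single junction. Intervals are 95% exact binomial (Clopper-Pearson) intervals and cover counting error only, and may be too narrow because PCR copies of a molecule cannot be recognised here. Sham was 1.43 times as deep, the smallest count above 0 was 2, and a 0 in the table does not prove absence (3 reads equal 26.5 CPM in sham and 38.1 CPM in BCP). Since a bulk library was made, fewer cells of a type and less RNA per cell cannot be told apart. The genes were proposed from their BCP and sham values in these data, so their differences are given as a description, with no test.

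A single circRNA made up most of the Mef2a signal. It joined positions 128239552 and 128243030 of chromosome 1 (build rn6), a span of 3479 bp. It had 64 reads in sham, or 566 CPM (436 to 723), and 88 reads in BCP, or 1116 CPM (895 to 1375). The level was higher in BCP and the intervals of the libraries did not overlap. How common such separation is among all circRNAs was not counted, here or for Ebf3 below. The ratio was 1.97-fold (1.41 to 2.76), just under the 2-fold limit of the size rule explained below. Among all listed circRNAs it ranked 246 in sham and 80 in BCP by reads, and 147 over both libraries.

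In the positions given for circRNAs, start and end mean the lower and the higher genomic position. Strand was not used, so before, upstream and downstream follow genomic position there and not the direction of transcription. The other circRNAs of Mef2a each used one of the same junction positions. The second started at the same position and ended 195 bp earlier (128239552 to 128242835, 3284 bp). It had 5 reads in sham, or 44.2 CPM (14.4 to 103), and 8 in BCP, or 101 CPM (43.8 to 199.9), so the intervals overlapped. The third ended at the same position as the main one but started 12908 bp before it (128226644 to 128243030, 16387 bp). It was listed at 0 in sham (0 to 32.6 CPM) and had 3 reads in BCP, 38.1 CPM (7.85 to 111), so the intervals overlapped.

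The shares of the Mef2a circRNAs had overlapping intervals in the libraries. The main circRNA held 92.8% of the gene's sham reads (83.9 to 97.6) and 88.9% of its BCP reads (81.0 to 94.3), and the second held 7.25% (2.40 to 16.1) and 8.08% (3.55 to 15.3). Over both libraries the main circRNA held 90.5% of Mef2a reads. Of 291 host genes with at least 3 circRNAs and 100 reads, Mef2a ranked 24 by this share, and the median gene gave 55.8% of its reads to its leading circRNA.

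**Figure D1:**
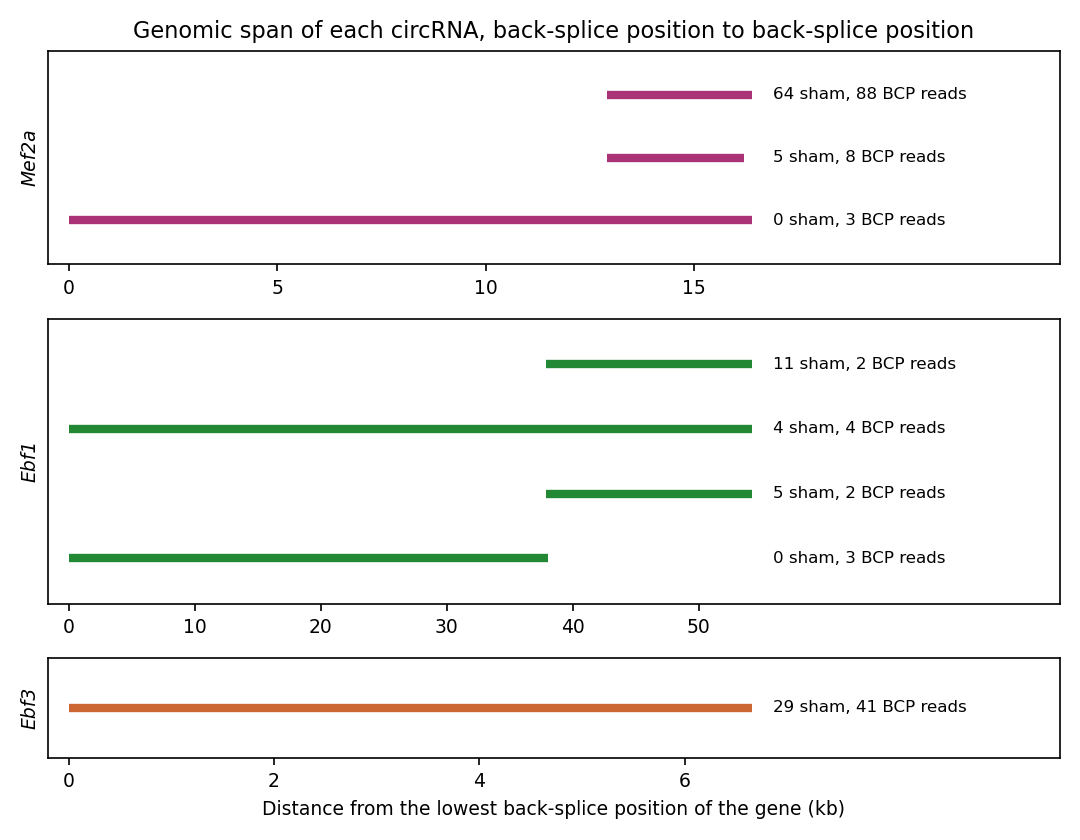
Bars show the genomic span of each circRNA, on a horizontal axis of distance in kb from the lowest back-splice position of its gene, with the reads of each library beside the bar. The main Mef2a circRNA (64 and 88 reads) shares its start with one bar and its end with the other, and the 4 Ebf1 bars meet or overlap near 38 kb.

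Summed over its 3 circRNAs, Mef2a had 69 reads in sham, or 610 CPM (475 to 773), and 99 in BCP, or 1256 CPM (1021 to 1529). Of 3864 host genes it ranked 168 by reads. The size rule called a circRNA or a host gene with at least 10 reads over both libraries when its ratio was at least 2-fold, with 0.5 reads added to each count, and the conditional exact interval of the ratio excluded 1. By this rule 8.82% of 2144 host genes were higher in BCP and 8.49% were lower. The Mef2a sum was 2.06-fold higher in BCP (1.498 to 2.84) and met it, but only just: median-of-ratios scaling gave 1.91 (1.39 to 2.64) and TMM scaling 1.90 (1.38 to 2.62), both under the limit. These scalings lowered every log2 ratio by the same amount, a shift of -0.10 and -0.12. With only the circRNAs that had reads in both libraries, 69 and 96 reads, the ratio was 1.995-fold (1.449 to 2.76), again under 2-fold. Without the main circRNA, 5 and 11 reads remained, a ratio of 3.15-fold (1.01 to 11.6), which met the rule with an interval that barely left out 1.

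Ebf3 had a single circRNA, from 209634356 to 209641015 on chromosome 1, with a span of 6660 bp. It had 29 reads in sham, or 257 CPM (172 to 368), and 41 in BCP, or 520 CPM (373 to 705). BCP was higher, and the intervals came close to each other without overlapping. The ratio was 2.03-fold (1.23 to 3.38), which put Ebf3 just inside the size rule, while the main Mef2a circRNA at 1.97-fold lay just outside it. With median-of-ratios scaling the Ebf3 ratio was 1.89 (1.14 to 3.15) and with TMM scaling 1.87 (1.13 to 3.12), so it no longer met the rule.

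A single circRNA was common among host genes: 1839 of them, or 47.6%, had only 1. Their median was 4 reads over both libraries, and Ebf3, with 70, ranked 53 among them. Over all circRNAs it ranked 644 in sham and 278 in BCP. No other circRNA shared either of its back-splice positions.

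Ebf1 gave 4 circRNAs on chromosome 10 with few reads each, and no single one held most of them in both libraries. The one with most reads, from 23952810 to 23969136 (16327 bp), had 11 reads in sham, or 97.3 CPM (48.6 to 174), and 2 in BCP, or 25.4 CPM (3.07 to 91.6). Its level was lower in BCP by 3.84-fold, but the interval of 0.837 to 35.6 took in 1. A near-identical circRNA started 3 bp further on, at 23952813, and ended at the same position (16324 bp). It had 5 reads in sham, or 44.2 CPM (14.4 to 103), and 2 in BCP, or 25.4 CPM. Together this pair had 16 and 4 reads, a level 2.79-fold lower in BCP (0.900 to 11.5).

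Such close pairs recurred in the table. Among circRNAs that shared one back-splice position exactly, 37 pairs differed by 3 bp at the other, 15 by 4 bp and 14 by 5 bp, against 2 pairs at 2 bp, 0 at 1 bp and 4 at 6 bp. Whether such entries are separate molecules was not tested.

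The remaining Ebf1 circRNAs both started 37896 bp before this pair, at 23914914. The longer one reached the same end as the pair, 23969136, a span of 54223 bp, which was longer than 90.5% of all listed spans. It had 4 reads in each library, 35.4 CPM in sham (9.64 to 90.6) and 50.7 CPM in BCP (13.8 to 129.9). The shorter one ended at 23952943 (38030 bp), was listed at 0 in sham and had 3 reads in BCP, 38.1 CPM (7.85 to 111). Its last 134 bp overlap the first of the circRNA that starts at 23952810, so the upstream and downstream spans meet over a short stretch.

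Grouped by start, the Ebf1 circRNAs pointed in opposite directions. Those with the upstream start had 4 sham and 7 BCP reads, or 35.4 and 88.8 CPM, a ratio of 2.51-fold (0.638 to 11.7), while the downstream pair was lower in BCP. Both intervals took in 1, so neither direction is settled at this depth. The leading circRNA held 55.0% of Ebf1 reads in sham (31.5 to 76.9) and 18.2% in BCP (2.28 to 51.8), again with overlapping intervals. In all, Ebf1 had 20 reads in sham, or 177 CPM (108 to 273), and 11 in BCP, or 140 CPM (69.7 to 249.6), a ratio of 0.789 (0.341 to 1.73). Without the leading circRNA, 9 reads remained in each library and the ratio turned to 1.43 (0.504 to 4.08), so its direction rested on that circRNA.

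**Figure D2:**
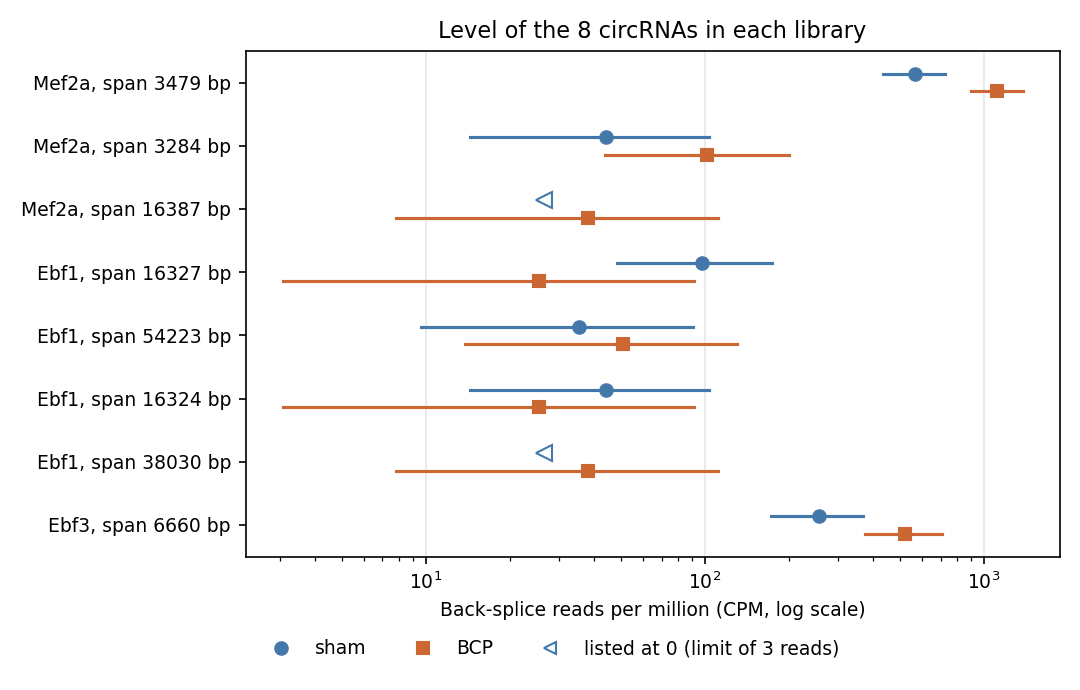
Points give the level of each circRNA in CPM on a log axis, circles for sham and squares for BCP, with 95% exact binomial intervals as lines; an open triangle marks a circRNA listed at 0, at the level of 3 reads. The intervals separate for the main Mef2a circRNA (566 and 1116 CPM) and for Ebf3 (257 and 520 CPM), and overlap for the others with reads in both libraries. How common such separation is among all circRNAs was not counted, so nothing is read from it.

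The order of the summed levels was Mef2a, Ebf3, Ebf1 in each library. Mef2a stood above Ebf3 in both without overlap of the intervals. Ebf3 and Ebf1 overlapped in sham (172 to 368 and 108 to 273 CPM) and did not in BCP (373 to 705 and 69.7 to 249.6 CPM). All 8 circRNAs together had 118 reads in sham, 0.104% of the library, and 151 in BCP, 0.192%.

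Set against all circRNAs, 4 of the 8 had at least 10 reads: 2 of Mef2a, 1 of Ebf1 and Ebf3. Of 3502 circRNAs with that many reads, the size rule called 7.82% as higher in BCP and 7.34% as lower, and of these 4 only Ebf3 was called, as higher; since the genes were proposed from this contrast, nothing is read from that count. The median log2 ratio of the 3502 was 0.02. On that scale the main Mef2a circRNA lay at 0.98, at percentile 85.3, Ebf3 at 1.01, at percentile 86.0, and the second Mef2a circRNA at 1.15, at percentile 88.5. The leading Ebf1 circRNA lay at -1.68, at percentile 6.28.

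**Figure D3:**
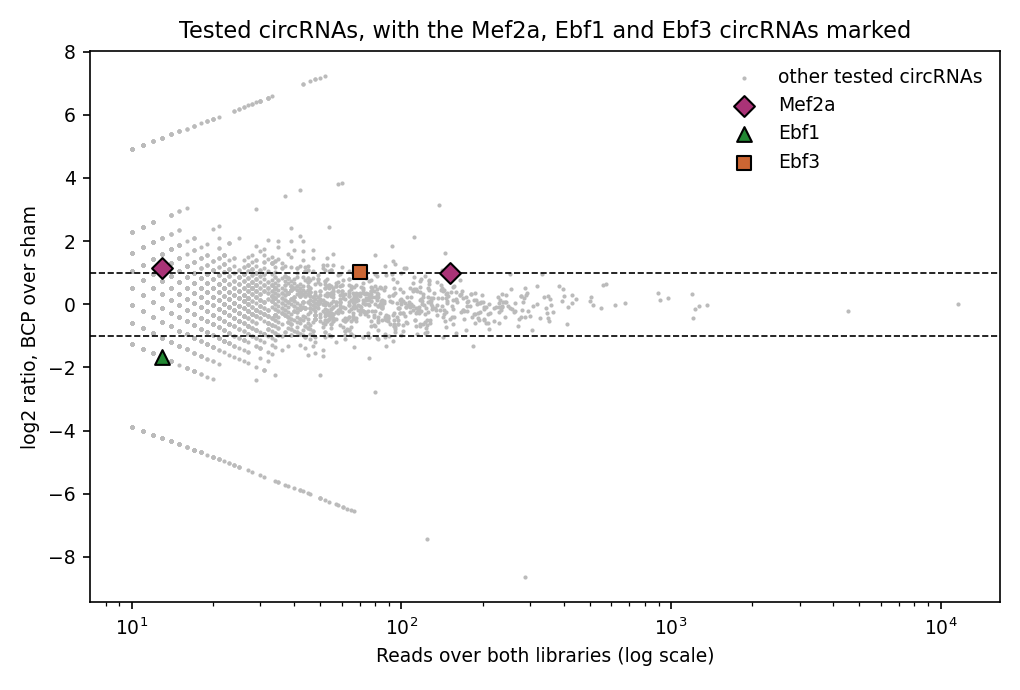
Each grey point is a circRNA with at least 10 reads, with reads over both libraries on a log horizontal axis and the log2 ratio of BCP over sham on the vertical axis; dashed lines mark 2-fold. Ebf3 (70 reads) and the main Mef2a circRNA (152 reads) lie at the upper line, and the second Mef2a and the leading Ebf1 circRNA, with 13 reads each, lie among the widely spread points of low count.

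The spans and junctions were not used to choose the circRNAs. Mef2a spans of 3284 and 3479 bp and the Ebf3 span of 6660 bp were below the median of 9708 bp for the whole table, and the third Mef2a span and all 4 Ebf1 spans were above it. Of the 8 circRNAs, 7 shared at least 1 back-splice position with another circRNA, against 59.9% of all circRNAs. Both positions were shared for 2 of the 8, the main Mef2a circRNA and the longest Ebf1 circRNA, against 16.6% of all. CircRNAs of 1 gene are not independent of each other, so these shares are a description.

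The family members that were not selected included both higher and near-level values. Mef2d had 11 sham reads and 21 BCP reads, which is 2.74-fold (1.26 to 6.29), and met the size rule as a sum. That call rested on a circRNA with 0 sham and 14 BCP reads (chromosome 2, 187525295 to 187532740), and the other Mef2d circRNA had 11 and 7 reads, a ratio of 0.912 (0.2999 to 2.58). Ebf4, whose only circRNA spans 603 bp (chromosome 3, 122882828 to 122883430), had 9 and 17 reads, 79.6 CPM (36.4 to 151) and 216 CPM (126 to 345), and was 2.71-fold higher in BCP (1.14 to 6.90). Mef2c, a MEF2 gene of neurons and of microglia, had 34 and 28 reads, a ratio of 1.18 (0.690 to 2.01). No circRNA had Mef2b or Ebf2 as its only host gene.

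Regulators and partners of these factors were followed as a list with the family members, 24 genes in all. CircRNAs were listed for 17 of them and 15 had at least 10 reads, of which 2 were higher in BCP (Mef2d and Ebf4), 1 was lower and 12 were not called, near the 8.82% higher and 8.49% lower of all 2144 host genes. Their median log2 ratio was 0.08, against 0.02 over all host genes, and both medians moved down, to -0.03 and -0.08, under median-of-ratios factors. The lower one was Ppp3cb, a catalytic subunit of calcineurin, with 14 and 2 reads (4.88-fold lower in BCP, 1.12 to 44.3), and 7 and 2 reads from the circRNA present in both libraries, too few for the rule. The other catalytic subunit gene in the list, Ppp3ca, had 31 and 11 reads, and its interval of 0.962 to 4.33 for the fold lower in BCP took in 1. With median-of-ratios scaling its ratio was 0.473 (0.215 to 0.967) and with TMM scaling 0.469 (0.213 to 0.959), which met the rule as lower. A further catalytic subunit gene, Ppp3cc, was not in the list. Its circRNAs with at least 10 reads went both ways. The one had 15 and 16 reads (log2 ratio 0.61) and the other 20 and 10 (-0.45).

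The most abundant of the list was a 239 bp circRNA of Hdac4, which encodes a class IIa deacetylase that represses MEF2 proteins. It had 156 reads in sham, or 1380 CPM (1172 to 1614), and 134 in BCP, or 1700 CPM (1424 to 2013), a ratio of 1.23 (0.970 to 1.56). Map2k5, whose product lies upstream of a MAP kinase that phosphorylates MEF2 proteins, had 110 and 60 reads over 18 circRNAs, a ratio of 0.782 (0.561 to 1.08). The acetyltransferase gene Crebbp had 80 and 45 reads (0.807, 0.547 to 1.18). The zinc finger gene Zfp423, whose product binds EBF proteins, had 49 and 41 reads (1.20, 0.773 to 1.85).

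**Figure D4:**
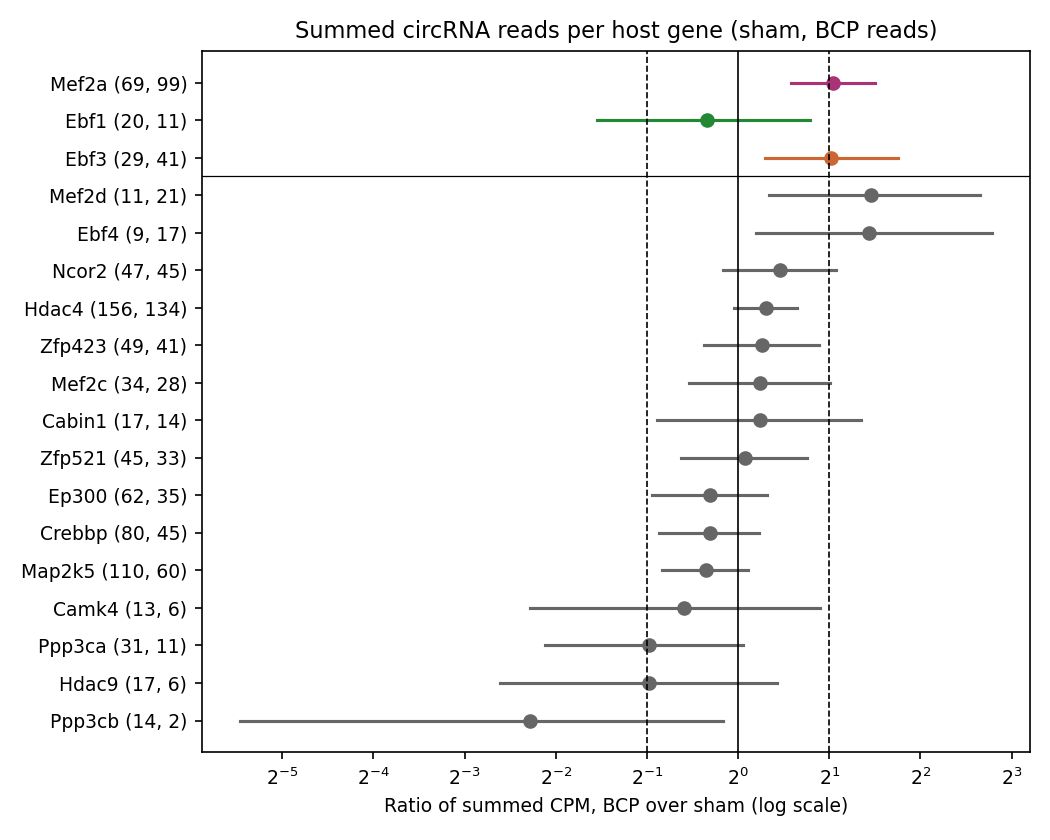
Points are ratios of summed CPM, BCP over sham, on a log axis for the 3 host genes (above the line) and for the 15 relatives and partners with at least 10 reads, with 95% conditional exact intervals; sham and BCP reads stand beside each name and dashed lines mark 2-fold either way. Mef2a and Ebf3 lie at 2-fold, Mef2d and Ebf4 above it, and Ppp3cb (14 and 2 reads) below the lower line.

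With only a pair of libraries, likeness of pattern could be measured just as the difference between summed log2 ratios. Among 344 host genes with at least 3 circRNAs and at least 0.5 times the reads of Mef2a, the closest were Mvb12b (46 and 66 reads, 2.06-fold), RGD1565616 (60 and 86 reads, 2.06-fold) and Fam193a (56 and 75 reads, 1.92-fold). For Ebf3 they were Ttc7a (26 and 37 reads), Limk1 (21 and 30 reads) and again RGD1565616. For Ebf1 they were Cpsf6 (116 and 65 reads), Ctnnal1 (29 and 16 reads) and Vti1a (107 and 60 reads).

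Marker genes of cell types were sparse as circRNA hosts. Of 8 neuron markers 4 were listed, with 119 and 102 reads in sham and BCP, or 1053 CPM (872 to 1260) and 1294 CPM (1055 to 1570). The ratio of these sums was 1.23 (0.934 to 1.615) and was not called. Of these, Map2 had 102 and 77 reads (1.08-fold, 0.794 to 1.47) and Rbfox3 11 and 15 (1.96-fold, 0.839 to 4.71). Snap25 went the other way with 2 and 0 reads, too few for the rule. Syt1 had 4 and 10 reads (3.58-fold, 1.034 to 15.7) and met the rule as higher, a call lost with either other scaling. Neither B lymphocyte markers (0 of 6) nor skeletal muscle markers (0 of 6) gave a circRNA as its only host gene. Oligodendrocyte markers (2 of 5) had 9 and 36 reads, 79.6 CPM (36.4 to 151) and 457 CPM (320 to 632), and their sum was called higher in BCP. The BCP reads all came from Mbp, which had 4 and 5 reads from its circRNA present in both libraries, while Mog had 3 and 0 reads and Mobp, Mag and Cnp were at 0. The part of the neuron and oligodendrocyte markers in the Mef2a and Ebf3 values was not tested. Vessel and pericyte markers (2 of 6) had 36 and 24 reads from called genes of opposite direction, Flt1 with 27 and 0 reads and Vwf with 9 and 24 (3.82-fold higher, 1.72 to 9.35). From circRNAs present in both libraries, Vwf had 7 and 13 reads (2.66-fold, 0.987 to 7.88) and was not called, and Flt1 had none. Fat and fibroblast markers (2 of 6) had 7 and 4 reads, from Col1a1 with 7 and 0 and Pdgfra with 0 and 4. Astrocyte markers (1 of 6) had 5 and 3, and microglia and macrophage markers (1 of 6) 2 and 0, with Gfap, Aqp4, Cx3cr1, Pdgfrb and Pparg at 0.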

How the data were processed

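The authors deposited a table of whole-number back-splice read counts per circRNA for 1 sham and 1 BCP library. The columns that the authors headed TPM hold CPM, the count scaled to its column total (largest difference 0.0005 CPM), and show 0.001 in place of 0. Per the submitters' processing notes, CASAVA 1.8 and BWA were used with build rn6. Which circRNA caller and annotation were used is not stated there. Per the labels' protocols, RNA was treated with 16 units of RNase R for 15 min, so linear host RNA is not measured.

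The 3 genes and all lists were chosen with earlier results of these data known. For host gene sums, small RNA family names and names spread over more than 3 Mb were dropped, which left 10003 circRNAs with 1 host, 1564 with none and 32 with several. Described by name were the 6 circRNAs with most reads per gene and all that met the size rule. So were called genes and the 3 with most reads of each list of transcription factors and partners. The 3 genes of closest ratio were named too. Ppp3ca, Ppp3cc, Mef2c, Zfp423 and the marker genes were added after their values were seen. An item of the marker lists is not reported here. No sequence is shown, since no rn6 genome was used here. Python 3.11.15, scipy 1.17.1, DESeq2 1.42.0 and edgeR 4.0.16 (both for scaling factors only) were used. The size rule was tried on simulated counts with counting error only, which hold no PCR copies and no variation between animals. Other scalings, read minimums, a pseudocount of 1 read and subsets of circRNAs were tried.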

Additional observations from a re-analysis of the deposited data

How the results depend on the processing

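No paired analysis was possible because each group has 1 library. Of 53 alternatives, 39 kept their value within the interval of the ratio or within 1.5 times the count. A value so kept could still lose its call, as the Mef2a and Ebf3 sums did with median-of-ratios and TMM scaling. A reversed direction was looked for only in the called sums, Mef2a and Ebf3, and 0 were found. The Ebf1 sum, which was not called, went from a log2 ratio of -0.31 to 0.52 without its leading circRNA, within its wide interval. For the gene sums, the only alternative outside its interval was Mef2a without its main circRNA, at a log2 ratio of 1.58. This could not be done for Ebf3, which has 1 circRNA. Among the 8 circRNAs, the number higher in BCP was 1 and became 0 with median-of-ratios and 0 with TMM scaling, and the number lower was 0 in every setting run. Over the whole table, the counts were 274 circRNAs higher and 257 lower, and 189 host genes higher and 182 lower. They were 231, 304, 162 and 212 with median-of-ratios and 228, 308, 158 and 213 with TMM scaling. With no read minimum they were 690, 558, 300 and 276. With a minimum of 20 reads they were 139, 112, 116 and 105, since fewer were assessed. With circRNAs present in both libraries alone, 190 circRNAs were higher and 83 lower, and 88 host genes were higher and 29 lower. A single read is worth 8.85 CPM in sham and 12.7 CPM in BCP, so the single minor Mef2a and Ebf1 circRNAs had intervals too wide to show a difference at this depth. The minor Mef2a circRNAs together (5 and 11 reads) met the size rule, with an interval from 1.01. That call rested on the circRNA with 0 and 3 reads, since the other (5 and 8 reads) was not called. The downward shift of either other scaling takes the lower limit below 1, so the call is lost.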

Other observations

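Other transcription factor genes of nervous tissue, a list of 30, were looked at beside Mef2a and the EBF genes. CircRNAs were listed for 21 of them, and 15 had at least 10 reads. The size rule called 0 of these as higher and 4 as lower in BCP, against 8.82% and 8.49% of all host genes. With median-of-ratios or TMM scaling 5 were lower, the added one being Pbx3 (25 and 8 reads; 0.427, 0.166 to 0.976, with the former). No test across replicates could be had. The lower ones were Satb1 (29 and 3 reads, 6.74-fold lower, 2.09 to 34.6), Sox6 (14 and 2 reads), Zeb1 (25 and 4 reads, 4.36-fold lower, 1.51 to 17.2) and Tcf12 (13 and 2 reads). When the circRNAs with a 0 were left out, Zeb1 (22 and 4 reads) still met the rule, Satb1 (5 and 3) and Tcf12 (2 and 2) had too few reads, and Sox6 had none. The Zeb1 call holds only for the entries assigned to Zeb1. A circRNA without an assigned host (chromosome 17, 54658435 to 54714913) shared its end with a Zeb1 circRNA of 16 and 2 reads. It had 23 and 20 reads (log2 ratio 0.32), and another unassigned one with its start had 6 and 7 (0.73). Neither entered the Zeb1 sum. The median log2 ratio of the 15 was -0.33, while its summed reads gave a ratio of 1.18 (1.05 to 1.34), opposite in sign. A single circRNA of Nfix, a nuclear factor I gene, held 269 sham and 289 BCP reads (ratio 1.54, 1.30 to 1.83), and without it the summed ratio was 0.885 (0.738 to 1.06). Median-of-ratios factors turned these sums to 1.10 (0.973 to 1.24) and 0.823 (0.687 to 0.985), so which interval left out 1 changed with the scaling. Meis1 had 57 and 56 reads and Sox5 40 and 22, and neither met the rule.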
